A study of Mus musculus with 6 samples.

Results

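The expression of 10 genes of lipid release, storage and efflux was followed through the transcriptomes of parental and oxaliplatin-resistant HCT116 cells. They are LIPG, PNPLA2 and PNPLA3 (lipases), LPIN1 and PLIN2 (neutral lipid synthesis and storage), SCARB1 (lipoprotein receptor), and ABCA1, ABCG1, MYLIP and LPCAT3 (targets of the sterol-sensing liver X receptors, LXR). They were picked by gene symbol, 10 of 31456 rows in the table, and the list was chosen from earlier results on the same resistant against parental contrast. Their differences between the groups are therefore given as a description, without a p-value for each gene. Their calls at the threshold are given only beside the share of all tested genes. HCT116 is an established human colorectal carcinoma line, and oxaliplatin is a platinum drug that damages DNA. The parental group and the resistant group each held 3 libraries of bulk RNA. The labels give the same line and cell type for both groups, and no drug dose, duration, number of clones or method of selection. Separate cultures are not stated either, so spread and p-values concern these libraries alone and may be technical.

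Cells keep surplus fatty acids and cholesterol as triglycerides and cholesteryl esters in lipid droplets, whose surface is covered by perilipins. Lipins make the diacylglycerol from which triglyceride is built, and cytosolic lipases such as PNPLA2 release the fatty acids again. Sterols enter through lipoprotein receptors and leave through the ABC transporters ABCA1 and ABCG1. LXR, switched on by oxysterols, raises those exporters and also MYLIP, whose product marks lipoprotein receptors for degradation. SREBP factors are active when sterols are scarce and drive synthesis and uptake genes, with LPIN1 and PNPLA3 among their known targets. SREBF1, the gene of SREBP1, is itself counted among the LXR targets below.

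The total count lay between 20246878 and 32138423 per library. Parental replicate 2 stood apart from its group. Counts of a replicate pair were compared by chi-square per gene, whose value is 1 where pairs differ by sampling only. Parental replicate 2 gave 11.5 and 11.1 with the other parental libraries, against 1.99 for the remaining parental pair, and from 2.66 to 4.51 among resistant pairs. Of 12 epithelial markers with a row 9 were above 3 counts in every library of each group, led by KRT8, KRT18, KRT19 and EPCAM. KRT20 was among the 9 but low, at 0.325 to 0.964 CPM, and MUC2, VIL1 and LGR5 were at or near 0. Markers of other cells were mostly near 0 (ADIPOQ, ALB, PTPRC, DCN). Their summed levels were nevertheless higher in the resistant libraries, at 0.445 to 0.603 against 0.113 to 0.293 CPM for the adipocyte list, 6.63 to 8.02 against 2.39 to 3.25 CPM for the hepatocyte list, 16.0 to 18.6 against 12.6 to 13.3 CPM for the macrophage list and 39.3 to 44.9 against 22.5 to 26.1 CPM for the fibroblast list. These sums rested mainly on PLIN1, SERPINA1, CD68 and COL1A1. The epithelial list summed to 2641 to 2788 CPM in the resistant and 2849 to 3253 CPM in the parental libraries. The part of these markers in the results that follow was not tested.

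Of the 10 genes 9 had no overlap between the groups in normalised CPM (counts scaled to equal library size with TMM factors), 7 lower and 2 higher in the resistant cells, and MYLIP overlapped. Across all 16605 tested genes 61.2% had no overlap. In edgeR's quasi-likelihood test 6 of the 10 were past an adjusted p of 0.05 on the lower side and 2 on the higher side, with PNPLA2 and MYLIP not past it. Of all tested genes 53.8% were past it, 27.3% higher and 26.5% lower. Since the genes were chosen with this contrast known, nothing is read from these counts. The median log2 fold change was -0.66 over the 10 genes and 0.016 over all tested genes. In bulk RNA a change in the share of cells that express a gene and a change in the level per cell cannot be told apart.

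**Figure D1:**
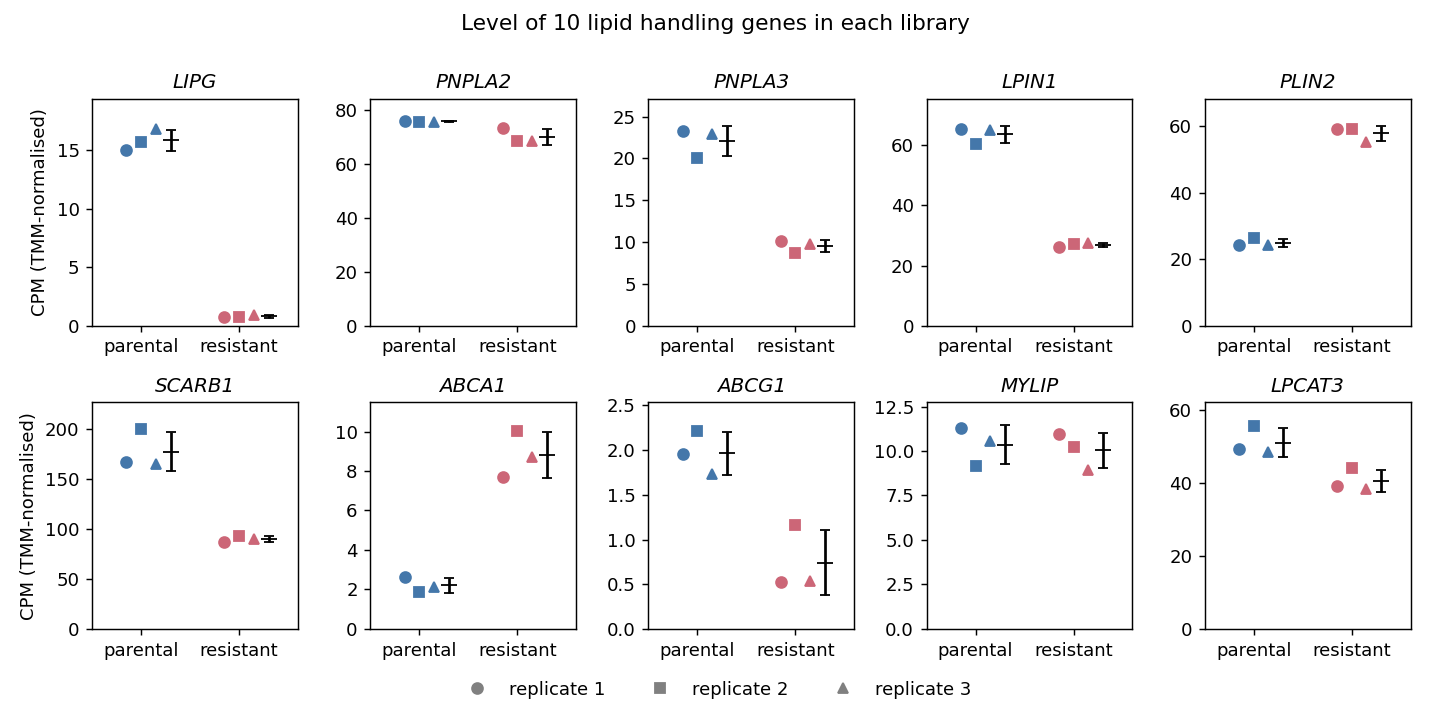
TMM-normalised CPM (y axis, linear from 0, a separate scale per gene) of the 10 genes in the 3 parental and 3 resistant libraries. Symbols mark replicates, and black bars give the mean and SD of 3 libraries. LIPG lies between 15.0 and 16.8 CPM in the parental and between 0.723 and 0.925 CPM in the resistant libraries, PLIN2 and ABCA1 are higher in the resistant cells, and MYLIP overlaps.

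Among the lipases, LIPG showed the widest gap of the 10 genes. LIPG (ENSG00000101670.12) encodes endothelial lipase, a secreted phospholipase that acts on high density lipoprotein. Its level was 15.0, 15.7 and 16.8 CPM in parental replicates 1, 2 and 3 and 0.723, 0.752 and 0.925 CPM in resistant replicates 1, 2 and 3. All resistant libraries were far below all parental ones. The resistant values rested on 18, 22 and 24 counts, against 400, 484 and 330 counts in the parental libraries. The exact 95% counting interval reached from 0.429 CPM at its lowest to 1.38 CPM at its highest in the resistant libraries, so the transcript was still detected above the floor of 3 counts (0.0975 to 0.153 CPM). The fitted log2 fold change was -4.30 ± 0.13 (SE), a 19.7-fold lower level, and LIPG was the 18th lowest of the 16605 tested genes.

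PNPLA2 (ENSG00000177666.17) encodes adipose triglyceride lipase, which takes the first fatty acid off a stored triglyceride. Levels of PNPLA2 were 75.8, 75.6 and 75.5 CPM over the parental libraries, against 73.3, 68.2 and 68.3 CPM over the resistant ones. The resistant libraries lay just below the parental ones. Its log2 fold change was -0.11 ± 0.048 (SE), which is 1.08-fold lower, and it shrank to -0.019 with library sizes alone. The parental SD of 0.156 CPM was 0.207% of the mean, the narrowest spread among the 10 genes. With 1482 to 2324 counts per parental library, counting error alone is wider, so this closeness is not read as a property of the gene.

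PNPLA3 (ENSG00000100344.10), the related lipid droplet protein adiponutrin with lipase and acyltransferase activity, behaved differently from PNPLA2. Levels of PNPLA3 were 23.3, 20.1 and 22.9 CPM over the parental libraries, against 10.1, 8.69 and 9.75 CPM over the resistant ones. The groups were well apart, with replicate 2 the lowest of each group. For PNPLA3 the log2 fold change was -1.22 ± 0.084 (SE), or 2.32-fold lower.

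LPIN1 and PLIN2, which act on the way into the droplet, differed in opposite directions. LPIN1 (ENSG00000134324.11) encodes lipin 1, a phosphatidate phosphatase. Levels of LPIN1 were 65.6, 60.4 and 65.0 CPM over the parental libraries, against 26.2, 27.2 and 27.5 CPM over the resistant ones. The 6 libraries formed tight groups with a wide gap. The log2 fold change of LPIN1 was -1.24 ± 0.056 (SE), 2.36-fold lower.

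PLIN2 (ENSG00000147872.10) encodes perilipin 2, a droplet coat protein of non-adipose cells. Levels of PLIN2 were 24.1, 26.2 and 24.3 CPM over the parental libraries, against 58.9, 59.2 and 55.1 CPM over the resistant ones. Every resistant library was above every parental library, with little spread in either group. The log2 fold change of PLIN2 was 1.21 ± 0.058 (SE), 2.32-fold higher. Less mRNA of a triglyceride synthesis gene stood beside more mRNA of a droplet coat gene, while the amount of stored lipid was not measured.

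SCARB1 (ENSG00000073060.16) encodes scavenger receptor class B type 1, which takes up cholesteryl ester from high density lipoprotein and can also release cholesterol to it. Levels of SCARB1 were 167, 200.3 and 165 CPM over the parental libraries, against 86.9, 92.8 and 89.9 CPM over the resistant ones. Parental replicate 2 was the highest of the 6, and the groups did not overlap. For SCARB1 the log2 fold change was -0.98 ± 0.072 (SE), 1.98-fold lower, and -0.89 without parental replicate 2.

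The LXR-driven genes did not differ as a block. ABCA1 was higher in the resistant cells, ABCG1 was lower, LPCAT3 was slightly lower and MYLIP overlapped. ABCA1 (ENSG00000165029.16) encodes the transporter that loads cholesterol and phospholipid onto lipid-poor apolipoprotein A1. It had 2.63, 1.89 and 2.14 CPM in the parental libraries, from 70, 58 and 42 counts, and 7.71, 10.02 and 8.71 CPM in the resistant libraries, from 192, 293 and 226 counts. The highest parental counting bound was 3.32 CPM and the lowest resistant one 6.66 CPM. The log2 fold change of ABCA1 was 1.99 ± 0.15 (SE), 3.98-fold higher.

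ABCG1 (ENSG00000160179.18), which exports cholesterol to high density lipoprotein particles, was the least abundant gene of the group by counts. It had 1.95, 2.21 and 1.73 CPM in the parental libraries, from 52, 68 and 34 counts. The resistant libraries had 0.522, 1.16 and 0.540 CPM, from 13, 34 and 14 counts. Resistant replicate 2 was above the other 2 libraries of its group, and its counting interval of 0.805 to 1.62 CPM overlapped that of parental replicate 3, 1.20 to 2.42 CPM. The ABCG1 log2 fold change was -1.39 ± 0.28 (SE), 2.62-fold lower, and -1.89 without resistant replicate 2.

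MYLIP (ENSG00000007944.15) encodes the ubiquitin ligase IDOL, which directs lipoprotein receptors such as VLDLR and LRP8 to degradation. Levels of MYLIP were 11.3, 9.17 and 10.6 CPM over the parental libraries, against 10.9, 10.2 and 8.94 CPM over the resistant ones. The groups overlapped over most of their range, with parental replicate 1 the highest and resistant replicate 3 the lowest of all libraries. Its log2 fold change was -0.042 ± 0.10 (SE), and its sign turned with the setting, between -0.13 without parental replicate 2 and 0.051 with library sizes alone.

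LPCAT3 (ENSG00000111684.11) encodes a lysophosphatidylcholine acyltransferase that puts polyunsaturated fatty acids into membrane phospholipids. Levels of LPCAT3 were 49.1, 55.4 and 48.3 CPM over the parental libraries, against 39.1, 43.9 and 38.3 CPM over the resistant ones. The groups were apart by a small margin, with replicate 2 the highest of each. The log2 fold change of LPCAT3 was -0.33 ± 0.071 (SE), 1.26-fold lower, and -0.27 without parental replicate 2.

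**Figure D2:**
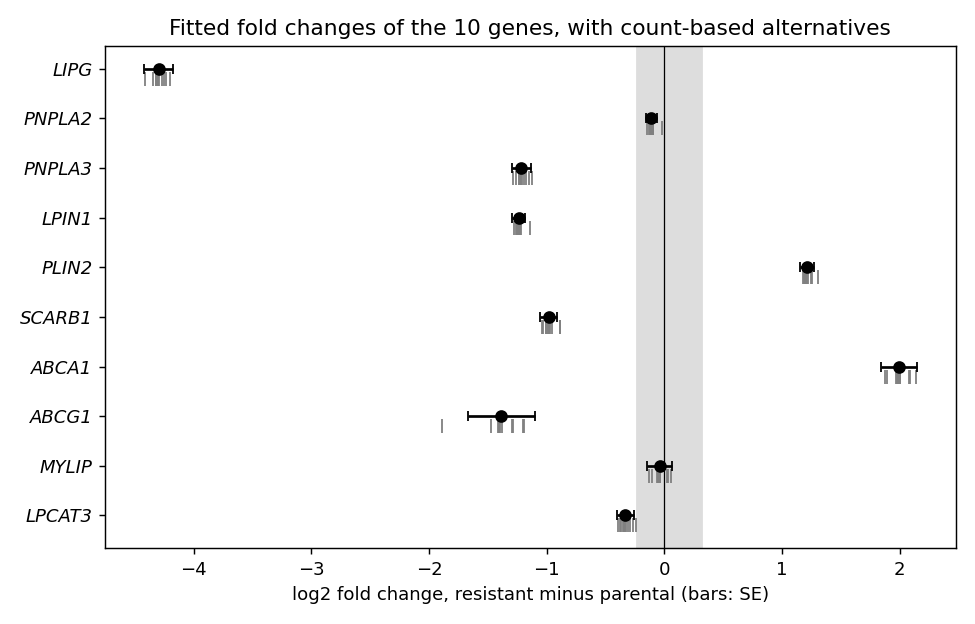
Log2 fold change of the 10 genes, resistant minus parental (x axis), with the SE of the edgeR fit as bars. Grey ticks under each point are the values under 12 count-based alternatives, and the grey band spans the middle 50% of all tested genes, from -0.23 to 0.32. PNPLA2 and MYLIP lie inside the band, LIPG lies at -4.30, and the ABCG1 ticks are the widest apart, with -1.89 without resistant replicate 2.

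The observed spread of the replicates differed between the genes, and with 3 libraries per group each such value is itself uncertain. The coefficient of variation of the CPM was between 0.207% (PNPLA2) and 17.1% (ABCA1) in the parental group and between 2.62% (LPIN1) and 49.2% (ABCG1) in the resistant group. Of the 10 genes 5 lay above the median level of all tested genes, and ABCG1, the lowest, lay at the 16.0th percentile. ABCA1 and ABCG1, with fewer than 100 counts in several libraries, had the widest SE.

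Levels of different genes were set side by side by FPKM, which divides by a gene length. The deposited FPKM are not counts over a fixed length per gene. SCARB1 was 2.29-fold lower by FPKM, against 1.98-fold by the fit on counts. The FPKM orders and family shares carry such differences, whose source was not tested. By FPKM SCARB1 ranked first of the 10 in both groups, with 111 ± 15.0 FPKM in the parental and 48.6 ± 1.17 FPKM in the resistant cells (SD, n = 3). In the parental group PNPLA2 followed with 38.1 ± 0.500 FPKM, then LPCAT3 with 29.3 ± 1.96 FPKM, PLIN2 with 16.0 ± 0.618 FPKM and LPIN1 with 12.3 ± 0.237 FPKM. LIPG had 5.51 ± 0.583 FPKM, PNPLA3 3.70 ± 0.106 FPKM and MYLIP 3.68 ± 0.411 FPKM, and the last 2 overlapped. The exporters were lowest, ABCG1 with 0.777 ± 0.182 FPKM and ABCA1 with 0.213 ± 0.035 FPKM.

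In the resistant group the order of FPKM was different. PLIN2, with 40.2 ± 1.88 FPKM, stood in second place and overlapped PNPLA2, with 36.6 ± 2.03 FPKM. ABCA1, with 0.943 ± 0.186 FPKM, was above ABCG1, with 0.353 ± 0.240 FPKM. LIPG was last with 0.280 ± 0.044 FPKM and overlapped ABCG1. LPCAT3 (24.5 ± 1.21 FPKM), LPIN1 (5.39 ± 0.210 FPKM), MYLIP (3.77 ± 0.377 FPKM) and PNPLA3 (1.63 ± 0.104 FPKM) lay between, with no overlap between neighbours.

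Shares of the summed FPKM were taken in 5 gene families, grouped by gene name or function. PLIN2 made up 11.7 ± 0.379% of the summed FPKM of the 5 perilipins in the parental and 27.8 ± 0.606% in the resistant libraries (SD, n = 3). PLIN3, a broadly expressed perilipin, made up 85.3 ± 0.540% and 69.0 ± 0.544%. The perilipin sum was 137 ± 9.06 FPKM and 145 ± 3.69 FPKM, within the spread. LPIN1 went from 44.5 ± 0.123% to 22.0 ± 1.45% of the 3 lipins, with LPIN2 at 21.3 ± 1.17% and then 35.7 ± 0.957%. The lipin sum was 27.5 ± 0.585 FPKM in the parental and 24.5 ± 1.48 FPKM in the resistant group.

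Among 8 patatin-like lipases PNPLA2 held 40.5 ± 1.04% of the parental and 37.6 ± 0.512% of the resistant FPKM, and PNPLA3 held 3.93 ± 0.0938% and 1.67 ± 0.0219%. Of the FPKM of 5 sterol-exporting ABC genes ABCA1 held 7.68 ± 1.87% and 31.2 ± 2.14%, and ABCG1 held 27.2 ± 2.59% and 11.1 ± 5.51%. ABCG4 was the most abundant of these exporters in both groups, with 1.84 ± 0.227 FPKM in the parental and 1.68 ± 0.110 FPKM in the resistant group. The sum of these 5 genes was 2.83 ± 0.389 FPKM and 3.02 ± 0.514 FPKM, a difference within the spread. Other ABC genes, counted below under sterol transport and efflux and some with far higher FPKM, were not in the sum. The sum and the shares therefore depend on the set chosen.

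LPCAT3 held 29.9 ± 0.365% and 23.1 ± 0.439% of the FPKM of the 4 lysophosphatidylcholine acyltransferases in the parental and resistant group.

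**Figure D3:**
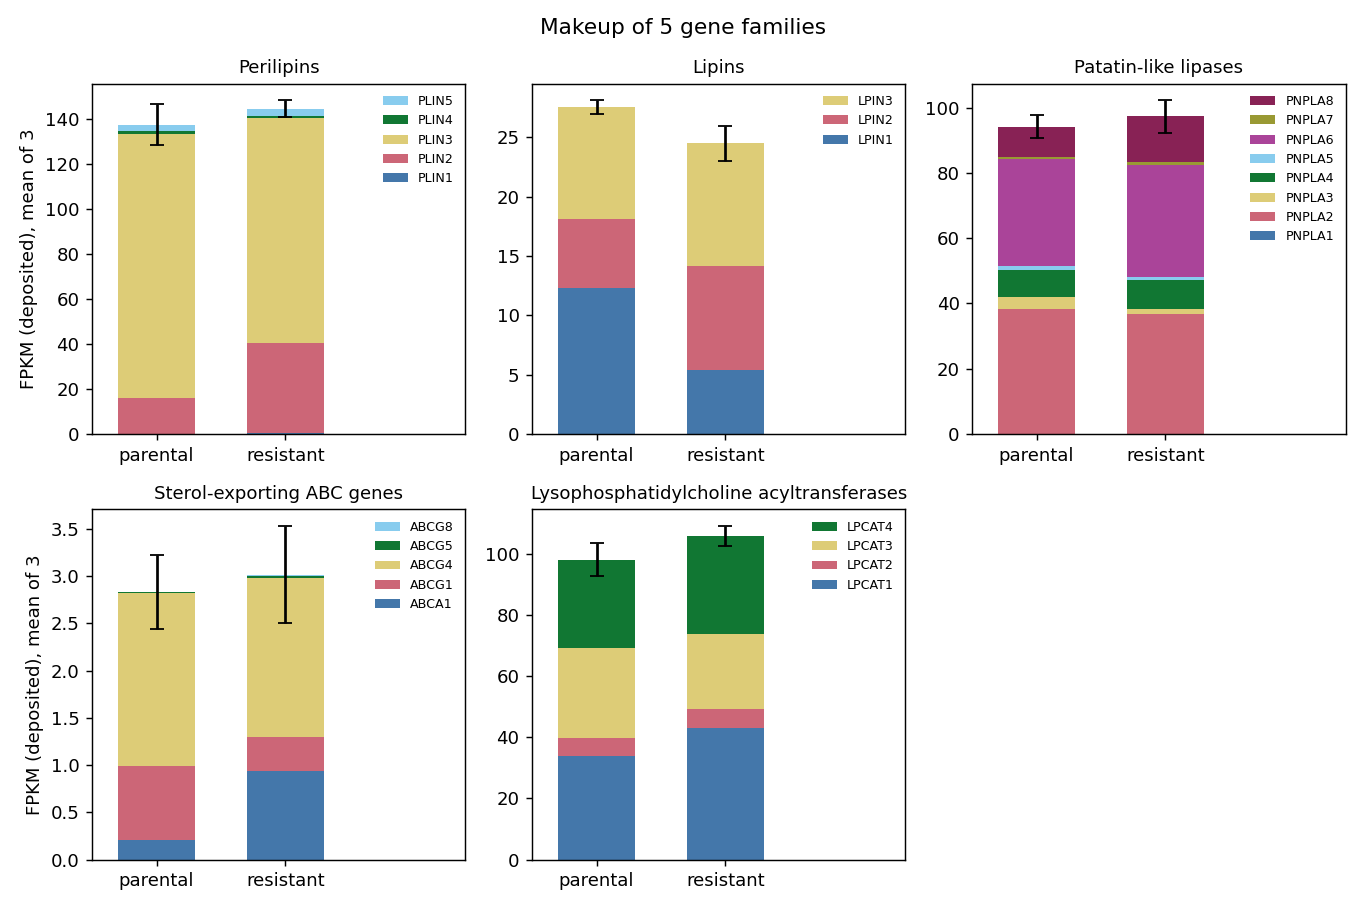
Deposited FPKM of 5 gene families with members among the 10 genes, as stacked bars of the mean of 3 libraries (y axis, linear from 0), with the SD of the family sum as black bars. PLIN2 takes a larger part of an almost level perilipin bar, and ABCA1 and ABCG1 change places in the exporter bar.

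Other genes of the same routes were read from 8 lists without the 10 genes. Of 147 genes 140 had a row and 112 passed the filter on low counts. Past the threshold 49 rose and 35 fell, the remaining 28 stayed short of it, and the median log2 fold change was 0.092. Of all tested genes 53.8% were past it, 27.3% higher and 26.5% lower. These shares also stand beside the count of each list below, and nothing is read from the list counts. The lists were also put together with results of these libraries known, and no test of the lists was made. With library sizes alone 56 rose and 24 fell, that is 70.0% of the called genes higher against 58.3% with TMM factors. Over all tested genes that share was 65.3% against 50.8%, and the median of all tested genes moved from 0.016 to 0.11.

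Lipases and their regulators moved both ways. Of 19 tested genes 9 rose and 5 fell, with a median log2 fold change of 0.18. Without resistant replicate 3, and on FPKM, 3 fell. ANGPTL4, a secreted inhibitor of lipoprotein lipase and endothelial lipase, rose 6.10-fold from 8.16 ± 0.654 to 50.1 ± 1.51 CPM (edgeR adjusted p = 8.0e-11). ABHD5, the coactivator gene of PNPLA2, fell 1.43-fold from 28.9 ± 0.769 to 20.1 ± 0.814 CPM (edgeR adjusted p = 1.6e-05). HILPDA, which encodes an inhibitor of the enzyme, rose 1.30-fold from 9.86 ± 0.518 to 12.8 ± 1.12 CPM (edgeR adjusted p = 0.0035), and the inhibitor gene G0S2 had 1 count in all 6 libraries together.

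Lipases of di- and monoglycerides went both ways. LIPE, the hormone-sensitive lipase gene, fell 1.78-fold from 7.10 ± 0.320 to 3.98 ± 0.219 CPM (edgeR adjusted p = 4.8e-05). MGLL, the monoglyceride lipase gene, fell 2.16-fold from 21.8 ± 1.21 to 10.1 ± 0.667 CPM (edgeR adjusted p = 1.9e-07). DAGLB, a diacylglycerol lipase gene, rose 1.36-fold from 24.96 ± 0.815 to 34.1 ± 1.02 CPM (edgeR adjusted p = 3.8e-05). ABHD6, another monoacylglycerol lipase gene, rose 1.34-fold from 14.0 ± 0.204 to 18.8 ± 0.724 CPM (edgeR adjusted p = 1.3e-04). AADAC, a microsomal esterase gene, rose 2.84-fold from 29.5 ± 2.24 to 83.5 ± 5.19 CPM (edgeR adjusted p = 6.2e-09).

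Of 13 tested genes of the lipid droplet coat and its assembly 4 rose and 5 fell, with a median log2 fold change of -0.070. On FPKM values with limma 1 rose and 3 fell, and 2 rose without resistant replicate 2 or resistant replicate 3. PLIN3 fell 1.22-fold from 216 ± 12.5 to 177 ± 4.22 CPM (edgeR adjusted p = 4.8e-04), opposite in direction to PLIN2. ACSL3, an acyl-CoA synthetase of nascent droplets, fell 2.48-fold from 274 ± 17.2 to 111 ± 3.18 CPM (edgeR adjusted p = 2.6e-09). FITM2, which encodes an endoplasmic reticulum protein needed for droplet formation, rose 1.35-fold (edgeR adjusted p = 0.0011). SOAT1, the cholesterol esterification gene, fell 1.22-fold in edgeR (adjusted p = 2.4e-04), a call lost on FPKM (limma adjusted p = 0.20, range 8.3e-07 to 0.20 over the alternatives). PLIN5, which tethers droplets to mitochondria, rose 1.37-fold in edgeR (adjusted p = 0.020). That call was lost without parental replicate 1 (edgeR adjusted p = 0.062), resistant replicate 2 (0.079) or resistant replicate 3 (0.066), and on FPKM, in a range of 0.0077 to 0.64. The fat-cell droplet gene PLIN1 had at most 14 counts in a library.

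In glycerolipid synthesis 9 of 17 tested genes rose and 5 fell, with a median log2 fold change of 0.15. LPIN2 rose 1.45-fold from 27.2 ± 1.57 to 39.5 ± 0.953 CPM (edgeR adjusted p = 1.3e-05), opposite to LPIN1. The enzymes of the last step went both ways. DGAT1 fell 1.81-fold from 44.6 ± 2.11 to 24.6 ± 1.68 CPM (edgeR adjusted p = 5.7e-07) and DGAT2 rose 1.70-fold from 4.43 ± 0.306 to 7.53 ± 0.335 CPM (edgeR adjusted p = 8.1e-05). Of the glycerol phosphate acyltransferases, which catalyse the first step, GPAT3 rose 1.90-fold (edgeR adjusted p = 8.2e-09) and GPAT2 fell 1.48-fold (edgeR adjusted p = 5.5e-06). With library sizes alone 3 genes of this list fell, and 3 without resistant replicate 2.

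Of 10 tested genes of lipoprotein receptors and uptake 5 fell and 2 rose, with a median log2 fold change of -0.097. With library sizes alone 2 fell, and on FPKM 3 fell. Receptors that the MYLIP product acts on include LRP8, which fell 1.11-fold (edgeR adjusted p = 0.0094), and VLDLR, with at most 6 counts in a library. The LRP8 call was lost with library sizes alone (edgeR adjusted p = 0.24, range 0.0016 to 0.24). LRP1, a large endocytic receptor, rose 1.25-fold in edgeR (adjusted p = 0.016). That LRP1 call was lost without parental replicate 1 (edgeR adjusted p = 0.073), parental replicate 3 (0.061), resistant replicate 1 (0.054) or resistant replicate 2 (0.059), and on FPKM, within a range of 6.0e-05 to 0.073. Without any of these 4 libraries or resistant replicate 3, at most 1 gene of the list rose.

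The LXR receptor genes themselves did not pass the threshold. NR1H2 stood at 24.5 ± 1.43 CPM (parental) and 24.4 ± 0.244 CPM (resistant) (SD, n = 3, edgeR adjusted p = 0.92), and NR1H3 had 9.65 ± 0.630 and 8.77 ± 0.776 CPM (edgeR adjusted p = 0.23). The sign of the NR1H2 difference turned with the setting. Of 11 tested LXR receptors, partners and targets 3 rose and 4 fell, with a median log2 fold change of -0.14. PLTP, the phospholipid transfer protein gene, rose 1.89-fold from 2.96 ± 0.512 to 5.60 ± 0.483 CPM (edgeR adjusted p = 2.8e-04). APOE, the apolipoprotein E gene, rose 2.81-fold from 0.495 ± 0.149 to 1.36 ± 0.292 CPM (edgeR adjusted p = 0.0011). APOE rested on few reads, with 16, 10 and 11 parental and 36, 47 and 27 resistant counts. Its log2 fold change of 1.49 ranged from 0.72 to 1.67 over the alternatives.

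SREBF1, which encodes SREBP1, fell 2.81-fold from 230 ± 10.3 to 81.7 ± 1.16 CPM (edgeR adjusted p = 3.0e-10). MLXIPL, the gene of the carbohydrate response factor ChREBP, fell 1.67-fold from 39.0 ± 1.96 to 23.3 ± 1.25 CPM (edgeR adjusted p = 1.6e-06). TTC39B, whose product promotes loss of LXR protein in mice, fell 1.21-fold in edgeR (adjusted p = 0.017). Its call was lost without parental replicate 3 (edgeR adjusted p = 0.054) or resistant replicate 2 (0.078) and with library sizes alone (0.11), in a range of 0.0021 to 0.11. The exporter genes ABCG5 and ABCG8 had at most 2 counts in a library and were not tested.

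Of 20 tested genes of sterol transport and efflux 10 rose and 8 fell, with a median log2 fold change of 0.020. NPC2, which binds cholesterol in the lysosome, rose 1.80-fold from 61.2 ± 3.58 to 110 ± 3.89 CPM (edgeR adjusted p = 1.3e-07). GRAMD1B, a carrier of cholesterol from the plasma membrane, rose 2.38-fold from 7.90 ± 0.809 to 18.8 ± 1.21 CPM (edgeR adjusted p = 3.3e-07). CAV1, the caveolin 1 gene, fell by 1.59 on the log2 scale from 676 ± 9.44 to 225 ± 2.87 CPM (edgeR adjusted p = 6.6e-11). The cytosolic sterol carrier gene STARD4 fell 3.23-fold (edgeR adjusted p = 9.3e-06), and TMEM97, which encodes a partner of the lysosomal cholesterol exporter NPC1, fell 1.74-fold (edgeR adjusted p = 2.4e-07).

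Among 9 tested lysophospholipid acyltransferases and related genes 4 rose and none fell in edgeR at the threshold, with a median log2 fold change of 0.081, and 1 fell on log2(FPKM + 0.1) with limma. LPCAT1 rose 1.29-fold from 103 ± 1.32 to 133 ± 2.11 CPM (edgeR adjusted p = 1.7e-05). LPCAT3, also a lysophosphatidylcholine acyltransferase gene, was 1.26-fold lower. MBOAT7, which acylates lysophosphatidylinositol, rose 1.24-fold (edgeR adjusted p = 1.9e-04). MBOAT2 rose 1.21-fold (edgeR adjusted p = 0.0036). TMEM86A, a lysoplasmalogenase gene, rose 1.58-fold (edgeR adjusted p = 0.023). This was lost leaving out parental replicate 1 (edgeR adjusted p = 0.10) or either of resistant replicate 1 (0.072) and resistant replicate 2 (0.096), with DESeq2 (0.099) and with limma on log2(FPKM + 1) (0.051), in a range of 0.012 to 0.10 over its alternatives.

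PLIN2 is also a known target of the fatty acid receptors PPAR. Of 13 tested genes of PPAR and fatty acid oxidation 8 rose and 3 fell, with a median log2 fold change of 0.22. CPT1A, the entry enzyme of mitochondrial fatty acid oxidation, rose 1.40-fold from 179 ± 12.1 to 252 ± 6.53 CPM (edgeR adjusted p = 1.1e-05). PDK4, a kinase that shuts off pyruvate oxidation, rose 2.03-fold from 2.89 ± 0.482 to 5.84 ± 0.554 CPM (edgeR adjusted p = 1.3e-04), and ACADVL rose 1.32-fold (edgeR adjusted p = 1.7e-05). ACADM, which oxidises medium chains, fell 1.25-fold (edgeR adjusted p = 1.6e-04).

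**Figure D4:**
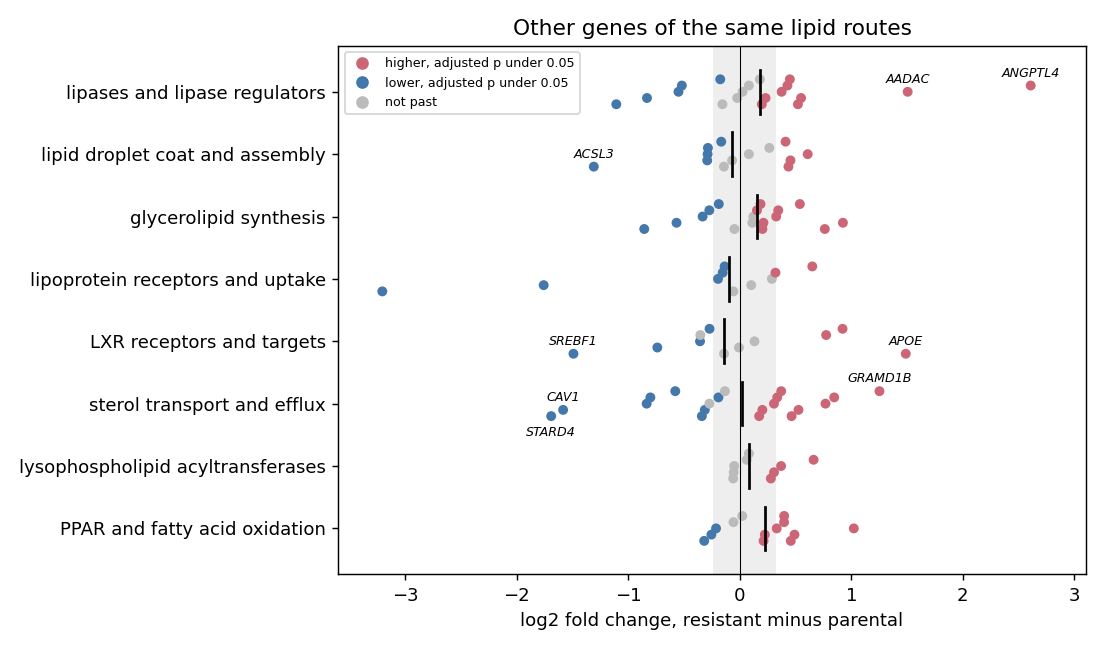
Log2 fold change, resistant minus parental (x axis), of the 112 tested genes in 8 lists of other lipid genes, 1 point per gene with a small vertical offset for display. Red points rose and blue points fell at an edgeR adjusted p under 0.05, grey points did not pass, black lines are list medians, and the grey band spans the middle 50% of all tested genes. All list medians lie inside the band, between -0.14 and 0.22, while ANGPTL4 lies farthest out on the higher side.

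The genes whose levels over the 6 libraries were most like those of LIPG and ABCA1, the members with the lowest and highest log2 fold change, were sought among 11312 named genes with a mean of at least 5 CPM. The measure was the root mean square distance of log2 CPM after centring each gene on its mean. Nearest to LIPG were ID2, at a distance of 0.16, IFIT2, at 0.30, and IFIT3, at 0.38. Nearest to ABCA1 were GLIS3, at 0.12, MOB3B, at 0.14, and IGFBP6, at 0.15. With 2 groups of 3 libraries this likeness follows mainly the size of the difference between the groups.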

How the data were processed

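The deposited tables give 1 column per library, which was tied to its sample through the sample descriptions, and groups and replicate numbers came from the titles. The authors deposited raw read counts for each gene. The authors also deposited FPKM, a unit inferred from the values because the header names none. Not given in the sources used here are aligner, counting program, strand setting and gene lengths. Labels name mouse and the submitters' processing notes GRCm38 and mm10, but 30616 of 31456 rows carry human Ensembl identifiers, so no mouse annotation, sequence or coordinate was used. The other 840 rows, unnamed gene models with 0.857% to 0.955% of the counts, were kept in the fit and none is named.

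Counts were fitted with edgeR 4.0.16 in R 4.3.3 (TMM, filterByExpr, robust quasi-likelihood test, two-sided, Benjamini-Hochberg adjustment over 16605 genes, threshold 0.05). CPM are TMM-normalised and folds are fitted. The SE is the log2 fold change divided by the square root of F. Counting intervals are exact Poisson intervals at 95% and, like the floor of 3 counts, cover counting error only. An exact permutation test of 3 against 3 libraries cannot go below p = 0.10 and was not made. The fit was tested on simulated data, with the same dispersion for every gene and changes placed only in genes of higher expected counts. Genes with as few counts as ABCG1 were not among those changed.

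The members, the 8 lists and the markers were chosen with earlier results of these data known. Beyond the members, the rule named up to 4 called genes per list with the smallest adjusted p, NR1H2, NR1H3, and the 3 genes nearest to the members with the largest fall and rise. LIPE, ABHD6, DAGLB, HILPDA, G0S2, PLIN1, PLIN5, TTC39B, DGAT2, APOE, STARD4, VLDLR, ABCG4, ABCG5 and ABCG8 were named after their values were seen. Of the genes the rule named, 3 are not reported here. Of the 147 list genes 7 were not analysed here (LPL, LIPC, CIDEA, LDAF1, MOGAT2, PPARGC1A, FABP1), nor were the markers CEACAM5, APOB and TTR. Alternatives were RLE factors, library sizes alone, 2 filters, DESeq2 1.42.0, limma 3.58.1 on log2(FPKM + 1) and log2(FPKM + 0.1) over the same genes, a replicate block, and leaving out each library.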

Additional observations from a re-analysis of the deposited data

How the results depend on the processing

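Of the 10 members 9 kept their sign under all 14 alternatives, and MYLIP turned as given above. The pseudocount on FPKM shrank the log2 fold changes of low genes, to -2.34 for LIPG, 0.68 for ABCA1 and -0.40 for ABCG1 on log2(FPKM + 1). The NR1H2 log2 fold change of -0.0083 became 0.086 with library sizes alone, 0.026 and 0.028 on FPKM with pseudocounts of 1 and 0.1, and it ranged from -0.042 without parental replicate 3 to 0.044 without parental replicate 2, never past the threshold. On FPKM 2807 and 2804 of all tested genes fell with the 2 pseudocounts, against 4399 by counts. At both pseudocounts 3 lipase genes, 3 droplet genes and 3 uptake genes fell and 1 droplet gene rose, and 1 acyltransferase gene fell with 0.1. With library sizes alone 2 uptake genes and 3 glycerolipid genes fell, and with DESeq2 1 uptake gene rose. Leaving out each library in turn, 2 to 4 droplet genes and 0 to 2 uptake genes rose, and 3 to 5 lipase genes and 3 to 5 glycerolipid genes fell. Without parental replicate 3 no uptake gene rose. Without parental replicate 2, over all lists 50 rose and 35 fell. The causes were not tested. The labels do not say that equal numbers mark shared cultures, so the numbers were not taken as pairs. Deviations of same-numbered libraries were nevertheless all positively correlated, at 0.098, 0.26 and 0.083. Whether equal numbers share a culture or a batch was not tested. The replicate block gave 5010 genes higher and 4963 lower over all genes, against 4534 and 4399 without the block. In the lists it gave 51 and 38, against 49 and 35. Of the 10 members ABCG1 is limited most by depth, with 13 to 68 counts per library.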
